A study of Mus musculus with 8 samples.

Results

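The core circadian clock genes were described in primary articular chondrocytes, the cells of joint cartilage, that had been treated with the inflammatory cytokine interleukin-1β (IL-1β) or with vehicle. The members were the 10 rows of the merged count table named *Arntl*, *Clock*, *Per1*, *Per2*, *Per3*, *Cry1*, *Cry2*, *Nr1d1*, *Nr1d2* and *Dbp*, out of 54658 gene symbols. All 10 were among the 14404 genes tested, which had more than 1 CPM (reads of a gene scaled to a common total of reads per sample) in at least 4 samples. Femoral heads of wild-type mice 3 weeks old were the source of the cells, which were grown in medium with 10% fetal bovine serum. They received 1 ng/mL IL-1β (4 samples) or vehicle (4 samples) for 24 h before bulk RNA-Seq, and both groups shared everything else that the labels give. The labels do not say whether the 4 samples of a group came from separate animals or cultures, so p-values measured the spread between these samples. With 1 time of collection, a shift in the phase of a rhythm and a change in its mean level cannot be told apart.

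The clock is a feedback loop of transcription factors that nearly every mammalian cell runs on its own. CLOCK and BMAL1, the product of *Arntl*, bind E-boxes as a dimer and activate the *Per*, *Cry*, *Nr1d1*, *Nr1d2* and *Dbp* genes. PER and CRY proteins then inhibit the dimer, whereas REV-ERBα and REV-ERBβ, the products of *Nr1d1* and *Nr1d2*, repress *Arntl* through ROR response elements (ROREs). DBP carries the rhythm to further genes through D-boxes. Chondrocytes have such a clock, and mice that lack *Arntl* in these cells lose articular cartilage.

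The regulatory letters of this loop were looked for in RefSeq promoter windows of the GRCm38.p6 assembly, which run from 250 bases before to 50 bases after a transcription start. There were 13 windows for 9 of the 10 genes, *Per2* being the gene without an entry, among 32851 windows of all genes. The following 4 windows are shown because together they hold the 3 kinds of element of the loop (E-box or E′-box, D-box and RORE), in capitals and written 5′ to 3′ on the strand of the gene. Capitals mark an E-box (CACGTG) and an E′-box (CACGTT, or AACGTG on the opposite strand) in *Cry1*, an E′-box in *Nr1d1*, 2 D-boxes (TTATGTAA) in *Per3* and a RORE core (TAGGTCA) in *Arntl*.
Cry1, chr10:85185005-85185304, minus strand: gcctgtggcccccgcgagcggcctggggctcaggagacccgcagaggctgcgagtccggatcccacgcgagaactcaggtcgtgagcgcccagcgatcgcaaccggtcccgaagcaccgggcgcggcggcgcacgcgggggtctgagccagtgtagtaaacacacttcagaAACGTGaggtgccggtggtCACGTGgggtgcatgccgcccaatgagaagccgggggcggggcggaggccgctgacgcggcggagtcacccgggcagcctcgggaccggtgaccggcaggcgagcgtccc
Nr1d1, chr11:98775328-98775627, minus strand: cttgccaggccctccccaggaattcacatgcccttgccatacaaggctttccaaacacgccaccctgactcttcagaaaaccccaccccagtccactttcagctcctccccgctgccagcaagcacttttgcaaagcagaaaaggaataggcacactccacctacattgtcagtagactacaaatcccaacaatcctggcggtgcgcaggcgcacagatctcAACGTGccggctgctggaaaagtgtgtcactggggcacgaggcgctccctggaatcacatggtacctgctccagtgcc
Per3, chr4:151044616-151044915, minus strand: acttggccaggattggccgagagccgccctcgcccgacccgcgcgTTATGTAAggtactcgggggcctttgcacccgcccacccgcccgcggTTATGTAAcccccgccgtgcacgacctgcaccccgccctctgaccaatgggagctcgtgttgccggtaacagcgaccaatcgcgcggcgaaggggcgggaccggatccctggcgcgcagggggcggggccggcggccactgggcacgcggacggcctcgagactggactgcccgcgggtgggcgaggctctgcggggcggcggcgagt
Arntl, chr7:113207261-113207560, plus strand: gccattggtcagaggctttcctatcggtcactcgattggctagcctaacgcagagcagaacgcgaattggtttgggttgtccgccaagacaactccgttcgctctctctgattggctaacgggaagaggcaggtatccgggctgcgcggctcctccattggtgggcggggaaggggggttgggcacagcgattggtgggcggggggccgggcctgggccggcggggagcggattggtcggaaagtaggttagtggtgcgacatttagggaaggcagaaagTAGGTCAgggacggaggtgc

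Both strands were searched for every motif. An E-box stood in 7.15% of all windows and, among the clock genes, in those of *Cry1*, beginning 60 bases before the start, and *Per1*, beginning 166 bases before it. E′-boxes stood in 4.68% of all windows and in those of *Cry1*, *Cry2* and *Nr1d1*. D-boxes, searched as TTATGTAA and TTACGTAA, stood in 1.06% of all windows and only in *Per3* among the members. The RORE core stood in 2.61% of all windows and in 1 *Arntl* window. The half-site TGACG of a cyclic AMP response element stood in 20.8% of all windows and in those of *Cry1*, *Cry2* and *Per1*, and the full element TGACGTCA, in 1.79% of all windows, was in none of the members. The same held for 2 κB sites, GGGACTTTC and GGGAATTTC, which stood in 0.612% of all windows. These are matches of letters and no measure of binding.

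Total counts were 10992355 to 17104351 in the IL-1β samples and 13970959 to 17456063 in the vehicle samples. The levels of *Mmp3* and *Mmp13*, matrix-degrading enzymes of cartilage that IL-1β is known to induce, rose by a log2 fold change of 5.48 and 2.72. All 8 chondrocyte markers, among them *Col2a1* and *Acan*, were present in both groups and lower with IL-1β, with a summed level of 4176 to 4587 CPM against 16080 to 16700 CPM. In bulk RNA, fewer cells of a type and less RNA per cell cannot be told apart. The 5 leukocyte markers summed to 15.9 to 18.9 CPM in IL-1β samples and to 11.5 to 12.6 CPM in vehicle samples. The leukocyte antigen gene *Ptprc* was at a mean of 0.148 and 0.107 CPM. Most of the sum was *Cd68*, at a mean of 15.0 and 9.48 CPM, which rose by a log2 fold change of 0.67. *Lyz2*, the only other leukocyte marker tested, went the other way, from a lower level (1.24 and 1.86 CPM, log2 fold change -0.60). The 3 endothelial markers and the 2 erythroid markers stayed under 1 CPM in sum in every sample. In the same order of groups, the 3 fibroblast markers summed to 119.6 to 133 CPM and 115.7 to 123 CPM. This sum hid unequal changes: *Pdgfra* rose by a log2 fold change of 0.58, whereas *Col1a1*, the most abundant, changed by -0.10. *Thy1* was too low to be tested. The 3 osteoblast markers summed to 24.9 to 29.9 CPM and 68.9 to 78.0 CPM. For the 3 proliferation markers the sums were 48.3 to 54.3 CPM and 57.8 to 64.3 CPM. The part of these shifts in the clock gene values was not tested.

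The clock genes changed in both directions, by log2 fold changes between -0.23 and 0.28 in all but *Nr1d1* and *Dbp*. With IL-1β, *Arntl*, *Cry1*, *Per1* and *Per2* rose, *Clock*, *Per3*, *Nr1d1*, *Nr1d2* and *Dbp* fell, and *Cry2* did not pass the test. By edgeR's quasi-likelihood test with Benjamini-Hochberg adjustment, 9 of the 10 had an adjusted p under 0.05, 4 higher and 5 lower, beside 40.2% of all genes tested (20.4% higher and 19.8% lower). None of the 10 was a differentially expressed gene (DEG) by the rule of a log2 fold change beyond 1 with an adjusted p under 0.05, beside 5.21% of all genes tested. The 2 groups did not overlap in 7 of the 10 members, beside 36.8% of all genes tested. The median size of the log2 fold change was 0.22 over the members and 0.16 over all genes tested. The 2 largest changes, those of *Dbp* and *Nr1d1*, were both decreases. Levels of single samples are CPM scaled by the trimmed mean of M values (TMM).

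**Figure D1:**
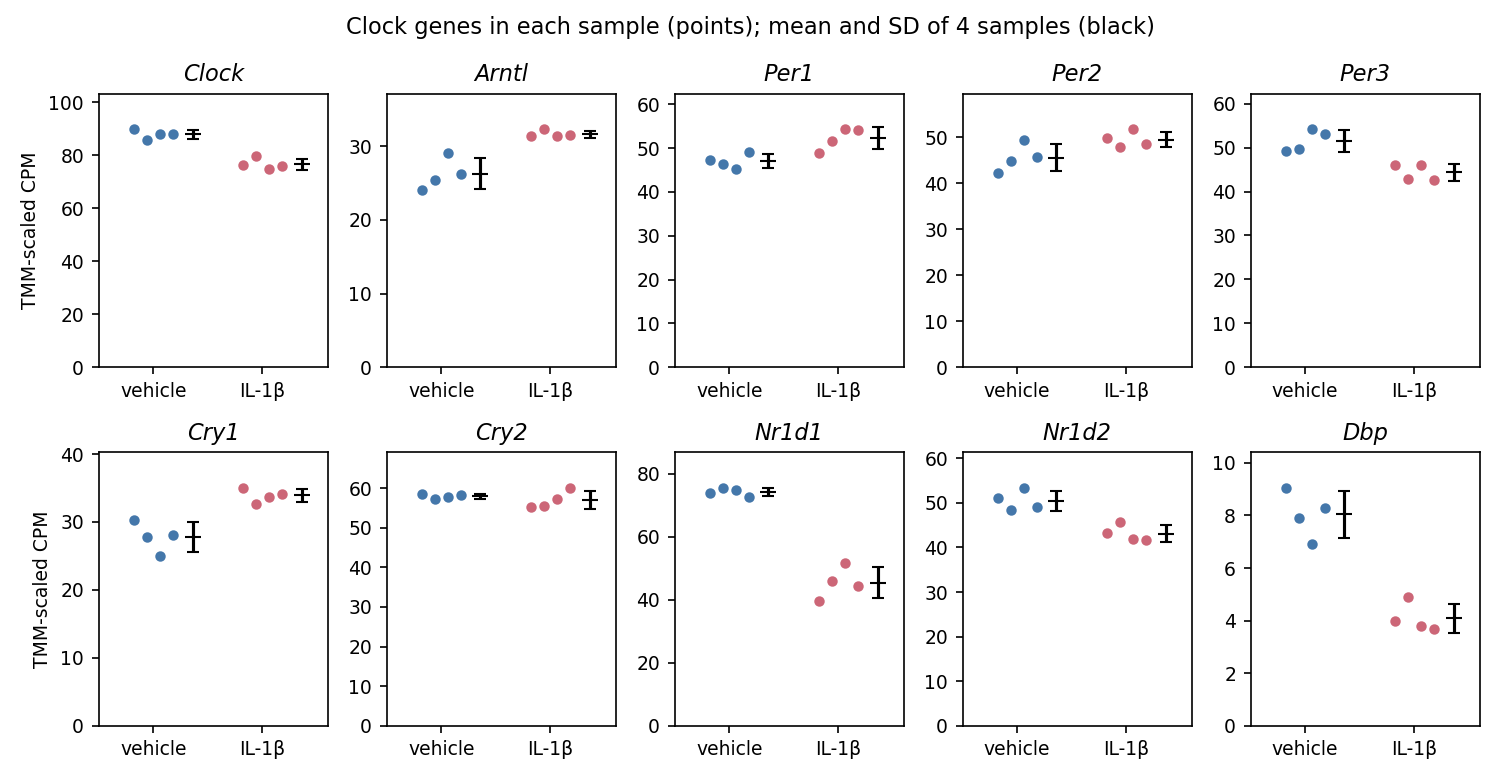
TMM-scaled CPM of each clock gene in the 4 vehicle samples (blue) and the 4 IL-1β samples (red), with the mean and SD in black and each vertical axis starting at 0. The groups are apart in all panels except *Per1*, *Per2* and *Cry2*, and the widest gaps are those of *Nr1d1* and *Dbp*.

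The partners of the activating dimer moved in opposite directions. *Arntl* (ENSMUSG00000055116.8, chr7:113207465-113314126, GRCm38, plus strand) was at 31.4, 32.3, 31.4 and 31.5 CPM in IL-1β replicates 1 to 4, and at 24.1, 25.5, 29.1 and 26.3 CPM in vehicle replicates 1 to 4. All 4 vehicle samples were the lower ones (31.6 ± 0.457 with IL-1β against 26.2 ± 2.10 CPM with vehicle, mean ± SD, n = 4 each). The IL-1β samples spread by 1.45% (coefficient of variation), which is less than the 4.76% that counting error alone gives. The vehicle samples spread by 8.01%, beside 4.9% from counting error. The closeness of the IL-1β samples is thus not read as a result. The log2 fold change was 0.27 (SE 0.0569, edgeR adjusted p = 0.00025). *Clock* (ENSMUSG00000029238.11, chr5:76209868-76304792, minus strand), which encodes the other subunit, was at 76.1, 79.5, 74.6 and 75.7 CPM with IL-1β and at 89.8, 85.6, 88.0 and 87.9 CPM with vehicle. All 4 IL-1β samples were the lower ones, at 87.1% of the vehicle level by a log2 fold change of -0.20 (SE 0.0367, edgeR adjusted p = 5.61e-05).

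The *Per* genes, which encode the repressors that accumulate in the course of the day, did not move as 1 group. *Per1* (ENSMUSG00000020893.17, chr11:69095217-69109960, plus strand) was at 48.8, 51.7, 54.3 and 54.2 CPM with IL-1β and 47.4, 46.4, 45.2 and 49.2 CPM with vehicle. IL-1β replicate 1 fell just under vehicle replicate 4, so the groups overlapped, and the log2 fold change was 0.16 (SE 0.044, edgeR adjusted p = 0.00526). *Per2* (ENSMUSG00000055866.9, chr1:91415982-91459324, minus strand) was at 49.8, 47.9, 51.8 and 48.6 CPM with IL-1β and 42.3, 44.9, 49.3 and 45.7 CPM with vehicle. Vehicle replicate 3 lay inside the IL-1β range, and the log2 fold change of 0.12 had an SE of 0.047 (edgeR adjusted p = 0.0353). This was the weakest call among the members, since the adjusted p was 0.099 by DESeq2 and 0.0757 by edgeR with no filter on low counts. Leaving out IL-1β replicate 1 or 3 gave an edgeR adjusted p of 0.0571 or 0.134, and leaving out vehicle replicate 1, 2 or 4 gave 0.166, 0.0843 or 0.0632. *Per3* (ENSMUSG00000028957.12, chr4:151003652-151044665, minus strand) went the other way, at 45.9, 42.8, 46.2 and 42.6 CPM with IL-1β and 49.2, 49.7, 54.2 and 53.2 CPM with vehicle. Its groups were apart, and its log2 fold change was -0.21 (SE 0.0457, edgeR adjusted p = 0.00038).

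The cryptochromes, the partners of the PER proteins and the stronger repressors of CLOCK and BMAL1, also differed from each other. *Cry1* (ENSMUSG00000020038.10, chr10:85131700-85185064, minus strand), whose window above holds both an E-box and an E′-box, was at 35.1, 32.7, 33.7 and 34.2 CPM with IL-1β and 30.3, 27.7, 25.0 and 28.1 CPM with vehicle. The groups were apart, and the rise to 122% of vehicle was the largest among the members, with a log2 fold change of 0.28 (SE 0.0562, edgeR adjusted p = 0.000161). *Cry2* (ENSMUSG00000068742.11, chr2:92403646-92434043, minus strand) was at 55.2, 55.5, 57.3 and 60.1 CPM with IL-1β and 58.6, 57.3, 57.8 and 58.2 CPM with vehicle. The IL-1β samples spread to both sides of the vehicle samples, and the log2 fold change of -0.02 had a 95% confidence interval of -0.11 to 0.06 (edgeR adjusted p = 0.71).

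The nuclear receptors REV-ERBα and REV-ERBβ form the stabilizing arm of the loop, and both of their genes fell. *Nr1d1* (ENSMUSG00000020889.11, chr11:98767932-98775333, minus strand) was at 39.6, 46.0, 51.6 and 44.5 CPM with IL-1β and at 73.7, 75.6, 74.7 and 72.7 CPM with vehicle. The highest IL-1β sample was well below the lowest vehicle sample, and the mean level was 45.4 ± 4.94 against 74.2 ± 1.25 CPM, or 61.7% of vehicle by the fitted log2 fold change of -0.70 (SE 0.0515, edgeR adjusted p = 3.68e-12). Of all genes tested, 8.78% had a larger change. The IL-1β samples of *Nr1d1* spread by 10.9% (coefficient of variation), more than the 3.94% that counting error alone gives. The vehicle samples spread by 1.68%, which is less than the 2.9% from counting error in that group. Among the IL-1β samples, the lowest *Nr1d1* level was in the library with the fewest counts and the highest in the one with the most. The part of depth in the spread of the IL-1β samples was not tested. *Nr1d2* (ENSMUSG00000021775.11, chr14:18204054-18239127, minus strand) was at 43.2, 45.8, 41.8 and 41.7 CPM with IL-1β and 51.1, 48.4, 53.4 and 49.1 CPM with vehicle. It fell in all 4 IL-1β samples relative to every vehicle sample, by a smaller log2 fold change of -0.23 (SE 0.0456, edgeR adjusted p = 0.000168).

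*Dbp*, a PAR bZIP activator that is a direct output of CLOCK and BMAL1, had the largest change of the 10. *Dbp* (ENSMUSG00000059824.12, chr7:45705088-45710203, plus strand) was at 3.96, 4.90, 3.80 and 3.69 CPM with IL-1β, from 44, 68, 64 and 52 reads. Vehicle samples held 9.06, 7.92, 6.92 and 8.28 CPM, from 157, 137, 97 and 126 reads. The groups were apart, and the fitted level with IL-1β was 50.6% of vehicle, a log2 fold change of -0.98 (SE 0.126, 95% confidence interval -1.24 to -0.72, edgeR adjusted p = 2.28e-07). *Dbp* thus lay at the edge of the DEG rule. Leaving out IL-1β replicate 2 gave -1.08 and leaving out vehicle replicate 3 gave -1.05, and *Dbp* was then a DEG. The IL-1β samples spread by 13.6%, beside 13.2% from counting error alone.

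**Figure D2:**
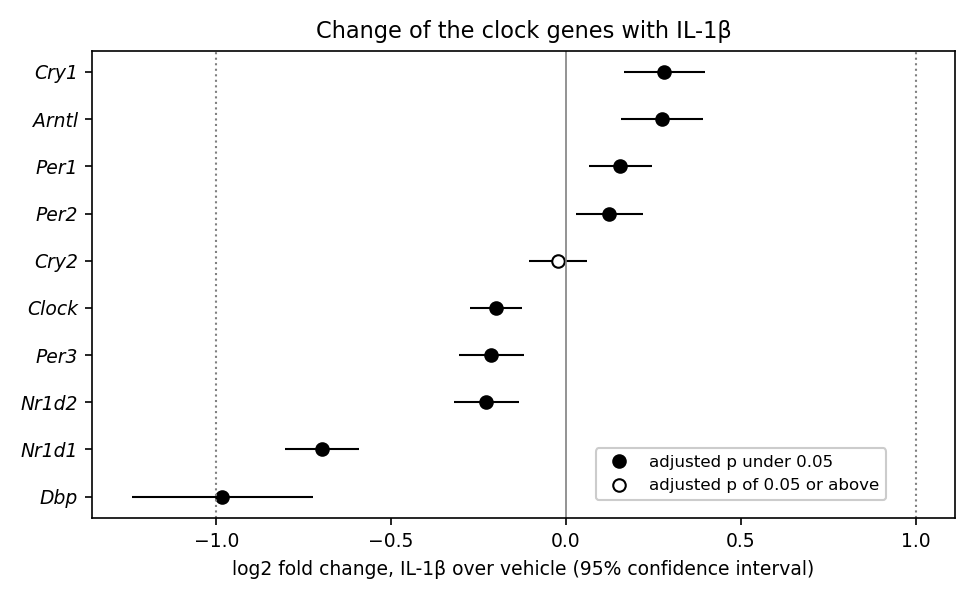
Fitted log2 fold change (horizontal axis, IL-1β over vehicle) of each clock gene with its 95% confidence interval; filled points had an edgeR adjusted p under 0.05 and dotted lines mark the DEG rule at 1 and -1. *Dbp* at -0.98 and *Nr1d1* at -0.70 stand to the left of all others, which lie between -0.23 and 0.28.

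Some reads of these genes could stem from neighbours, since whether the counting used strand is not given in the sources used here. *Dbp* shared 539 exonic bases (18.0% of its length) with *Sphk2* on the other strand, and *Nr1d1* shared 263 (8.55%) with *Thra*, the gene for thyroid hormone receptor α. The mean of *Sphk2* was 85.5 CPM in IL-1β and 91.7 CPM in vehicle samples (log2 fold change -0.10) and that of *Thra* was 80.5 and 87.3 CPM (-0.11), both smaller changes than those of *Dbp* and *Nr1d1*. *Cry2* shared 295 bases (4.67%) with *D930015M05Rik* and *Arntl* shared 33 bases (0.439%) with *Gm45355*.

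Whether partners and paralogs changed unequally was tested on the log2 ratio of their reads within each sample, which does not depend on library size. Of 6 pairs, 5 had ratios that did not overlap between the groups. Each of these 5 reached the smallest p that 4 samples against 4 allow in the exact two-sided permutation test (p = 0.0286, Benjamini-Hochberg adjusted p = 0.0343 over the 6 pairs). Of all single genes tested, 36.8% did not overlap between the groups, and the share over other gene pairs was not computed. The pairs of *Per1* and of *Per2* with *Per3* have a gene in common and are not separate results. *Arntl* and *Clock* were each apart as single genes, in opposite directions. Their ratio therefore had to be apart, and its p-value adds nothing to the single-gene results. The *Arntl* to *Clock* ratio was -1.27 ± 0.0204 with IL-1β and -1.74 ± 0.122 with vehicle, a difference of 0.47 (SE 0.062). *Cry1* rose relative to *Cry2* by 0.32 (SE 0.0641), and *Nr1d1* fell relative to *Nr1d2* by 0.49 (SE 0.0959). Against *Per3*, *Per1* rose by 0.37 (SE 0.0706) and *Per2* by 0.34 (SE 0.0267). The ratio of *Per1* to *Per2* was 0.08 ± 0.0794 and 0.05 ± 0.124, with a difference of 0.03 (SE 0.0737) that was within the spread between samples (exact permutation p = 0.657).

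**Figure D3:**
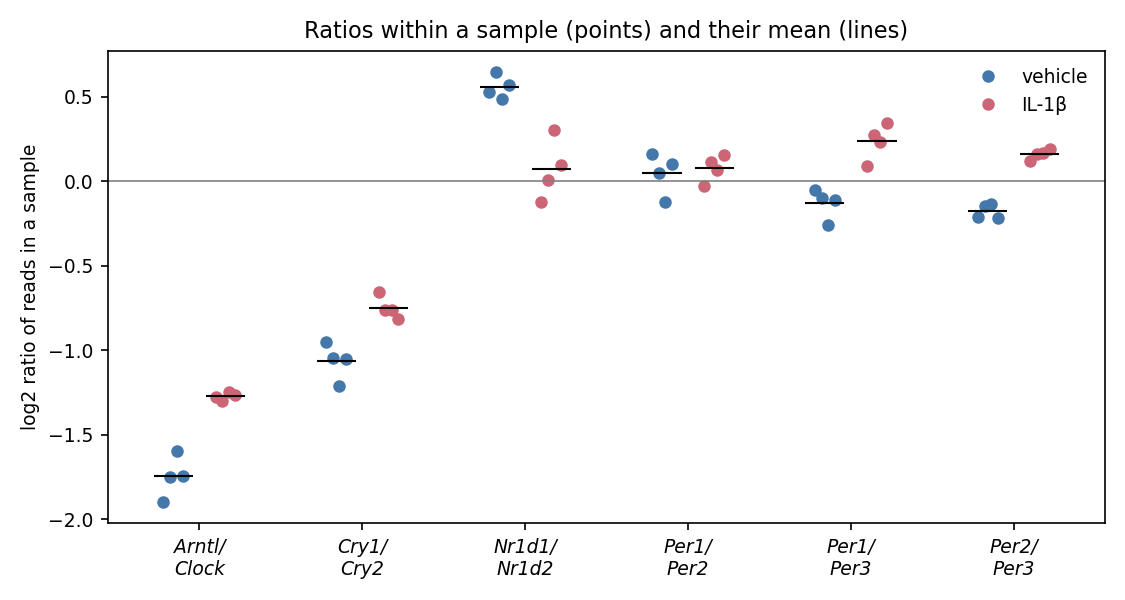
Log2 ratio of the reads of 2 clock genes within each sample (vertical axis) for 6 pairs, with vehicle in blue, IL-1β in red and lines at the mean of 4 samples. The groups are apart for 5 pairs and overlap for *Per1* to *Per2*.

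The balance between the activator gene *Arntl* and the 2 genes that fell most was read within each sample. There were 0.793, 0.702, 0.608 and 0.708 reads of *Arntl* per read of *Nr1d1* in the IL-1β samples and 0.327, 0.337, 0.389 and 0.362 in the vehicle samples. For *Arntl* over *Dbp* the ratios were 7.91, 6.59, 8.25 and 8.54 with IL-1β and 2.66, 3.22, 4.21 and 3.17 with vehicle. Both ratios were higher in every IL-1β sample than in any vehicle sample, and both are given as a description with no test, since the pairs were chosen with their changes known.

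Levels of different genes were compared as CPM per kilobase of exon. On this scale *Nr1d1* was the most abundant clock gene in vehicle samples, at 24.1 ± 0.406 CPM per kilobase. Without division by length, 7 of the 10 members changed place in the vehicle order, and *Clock*, the member with the most exonic bases, came first and *Nr1d1* second. *Nr1d2* (9.34 ± 0.419), *Cry2* (9.17 ± 0.0918), *Per1* (8.35 ± 0.295), *Cry1* (8.32 ± 0.661) and *Per2* (7.79 ± 0.494) followed. As neighbours in this order, *Nr1d2* and *Cry2* overlapped, as did *Per1* with *Cry1* and *Cry1* with *Per2*. Beyond neighbours, *Cry1* (7.47 to 9.09) reached into the ranges of *Cry2* (from 9.06) and *Nr1d2* (from 8.94). The range of *Per1* (from 8.03) likewise overlapped that of *Per2* (up to 8.43). The level of *Clock* was 6.40 ± 0.126, that of *Per3* was 5.37 ± 0.261, that of *Arntl* was 3.49 ± 0.279 and that of *Dbp* was 2.69 ± 0.297 CPM per kilobase, each apart from the next. With IL-1β, *Nr1d1* stayed first per kilobase (the fifth by CPM alone) at 14.8 ± 1.61 and *Dbp* last at 1.37 ± 0.185 CPM per kilobase. *Cry1* moved up to the second place with 10.2 ± 0.297 CPM per kilobase, ahead of *Per1* (9.28 ± 0.456), and *Nr1d2* moved down to the sixth with 7.97 ± 0.352. *Per1* and *Cry2*, *Cry2* and *Per2*, and *Per2* and *Nr1d2* overlapped as neighbours in that order.

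**Figure D4:**
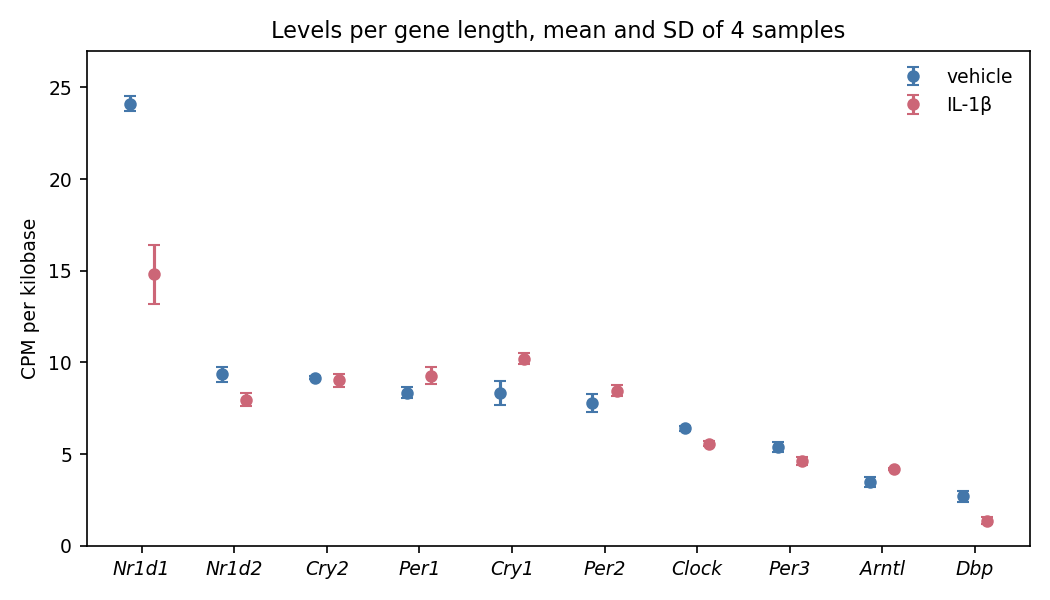
Level per gene length (vertical axis, CPM per kilobase) of the 10 clock genes in vehicle (blue) and IL-1β (red) samples, as the mean and SD of 4 samples each, ordered by the vehicle level. *Nr1d1* is first in both groups, at 24.1 and 14.8 CPM per kilobase.

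Beyond the 10 members, 3 lists of clock-related genes were examined. Of 10 further transcription factors of the loops, 8 were tested, of which 3 rose and 3 fell, beside 20.4% and 19.8% of all genes tested. None of these 8 was a DEG, beside 5.21% of all genes tested. *Rora*, the gene for RORα, an activator that competes with the REV-ERBs for ROREs, rose by 0.28 (edgeR adjusted p = 1.81e-06), and *Nfil3*, whose product represses through D-boxes, rose by 0.44 (edgeR adjusted p = 9.16e-09). *Bhlhe40*, the gene for the E-box repressor DEC1, was the other riser at 0.16. The genes that fell were *Ciart* (-0.30, edgeR adjusted p = 9.45e-06), which encodes a repressor of CLOCK and BMAL1, *Tef* (-0.28), a relative of *Dbp*, and *Npas2* (-0.32), a paralog of *Clock*. *Arntl2* at 0.36 and *Bhlhe41* at -0.04 did not pass, and *Rorb* and *Hlf* were too low to be tested. The median log2 fold change of this list was 0.06, against 0.00 over all genes tested.

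Of 20 genes for kinases, ubiquitin ligases and other modifiers of clock proteins, 19 were tested, of which 7 rose, 5 fell and 7 did not pass, with 0 DEGs and a median log2 fold change of 0.03. Over all genes tested, 20.4% rose, 19.8% fell and 5.21% were DEGs. *Csnk1e* and *Csnk1d*, the casein kinases that phosphorylate PER proteins, rose by 0.23 and 0.14 (edgeR adjusted p = 0.000284 and 0.000791). *Huwe1*, a ubiquitin ligase gene, fell by 0.13 on the log2 scale (edgeR adjusted p = 0.000625). Of 9 genes taken as rhythmic outputs, all were tested, of which 2 rose, 2 fell and 5 did not pass, with 0 DEGs and a median of 0.01. These 4 of 9 are near the 40.2% of all genes tested that passed. *Nampt*, the rate-limiting enzyme of NAD salvage, rose by 0.65 (edgeR adjusted p = 9.53e-14) and *Noct*, the gene for the phosphatase nocturnin, by 0.61 (1.05e-07). *Tspan4* fell by 0.54 on the log2 scale (edgeR adjusted p = 3.38e-13) and *Tsc22d3*, a glucocorticoid-induced gene, by 0.25 (3.65e-05). The fitted changes of *Nampt*, *Noct* and *Tspan4* were larger in size than those of all members other than *Nr1d1* and *Dbp*.

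**Figure D5:**
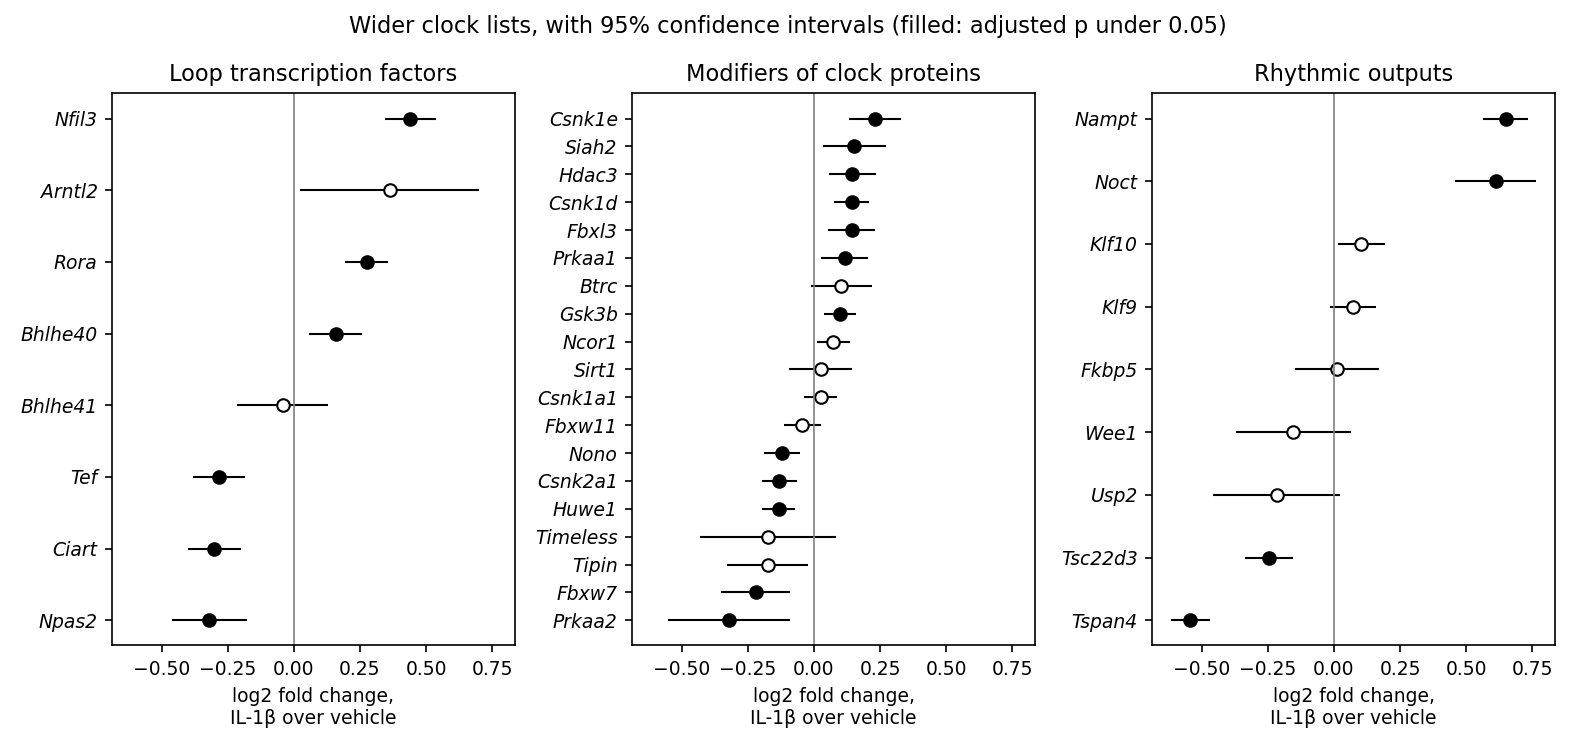
Log2 fold change (horizontal axis, IL-1β over vehicle) with its 95% confidence interval for the tested genes of 3 lists related to the clock, filled where the edgeR adjusted p was under 0.05. All tested genes of the 3 lists shown lie within 1 on either side of 0, with *Nampt* at 0.65 the highest and *Tspan4* at -0.54 the lowest.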

How the data were processed

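Reads from total RNA had been trimmed (cutadapt), mapped to mm10 (STAR) and assigned to genes (featureCounts) by the authors, per the labels and methods. The table that the authors deposited holds whole-number counts for each gene symbol, and whether they precede or follow the RUVseq correction that the methods name is not given in the sources used here. The deposited table also holds gene lengths in bases (unit: other), used only for CPM per kilobase. All 8 count columns were used, with groups taken from the treatment label.

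TMM normalization (factors 0.984 to 1.01) preceded the quasi-likelihood test of edgeR 4.0.16 in R 4.3.3 (with limma 3.58.1), in which treatment was the only term. The fit covered all 14404 genes that had over 1 CPM in 4 or more samples, and p-values were adjusted over all of them by the Benjamini-Hochberg method. Pair ratios, with 0.5 reads added, were tested by exact permutation (Python 3.11.15, scipy 1.17.1). Alternatives were DESeq2 1.42.0, other scalings and filters, 1 factor of unwanted variation, the replicate number as a block, and leaving out each sample. The code was tested on simulated data. A count of 3, the smallest taken as detected, was 0.172 to 0.273 CPM, which covers counting error only. Within groups, the chi-square per degree of freedom between samples was 1.83 to 5.25, so no 2 samples agreed within sampling noise. The transcript *Gm26917* took 13.2% to 14.6% of the counts. Gene positions came from GENCODE vM21 (GRCm38, the assembly of mm10), in which the exon length of all 10 genes equalled the deposited length. The members and lists were chosen with earlier results of these data known. All members were named, and from the further lists any DEGs and the 3 genes with the smallest adjusted p, and *Bhlhe40*, *Tef*, *Npas2*, *Arntl2*, *Bhlhe41* and *Tsc22d3* were named after their values were seen. A gene of the loop list is not reported here and was left out of that list's counts.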

Additional observations from a re-analysis of the deposited data

Results flagged for a closer look

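The *Arntl* level of IL-1β replicate 2, at 32.3 CPM, stood apart from the other 3 IL-1β samples, which lay between 31.4 and 31.5 CPM. The gap was large only relative to a very narrow range. This was 1 of 22 groups of 4 samples examined, and chance marks about 1 in 20 groups.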

How the results depend on the processing

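Of 150 values of the members' log2 fold changes under other settings, 143 kept their direction and side of the threshold, 7 (all of *Per2*) lost significance and 0 reversed. Of the 10 clock genes, 8 to 9 passed under each setting. The number of clock genes that were DEGs was 0 as reported, 0 to 1 with 1 sample left out (*Dbp*, without IL-1β replicate 2 or without vehicle replicate 3) and 2 with the fold threshold lowered to 0.5 on the log2 scale (*Dbp* and *Nr1d1*). With no filter on low counts, 1206 genes were DEGs in place of 751, with more genes tested, and with a CPM above 1 required in all 8 samples 511 were, with fewer. Leaving out 1 sample gave pair differences of 0.42 to 0.52 for *Arntl* to *Clock*, 0.27 to 0.35 for *Cry1* to *Cry2*, -0.56 to -0.42 for *Nr1d1* to *Nr1d2*, 0.32 to 0.42 for *Per1* to *Per3* and 0.32 to 0.35 for *Per2* to *Per3*. Each of these had an adjusted p of 0.0686 by exact permutation, which with 3 samples against 4 cannot give a p under 0.05. For *Per1* to *Per2* the range was -0.0275 to 0.0684 around the reported 0.03, and the sign turned without vehicle replicate 3 (-0.0275).

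Samples with the same replicate number did not deviate together over the genes tested (correlations -0.0653 to 0.0321). Whether the numbers pair samples is not settled by this, since the counts may already have been corrected for unwanted variation. With the replicate number as a block in edgeR, 9 clock genes passed and 0 were DEGs. In the paired sign-flip test of the pair ratios, whose smallest exact p is 0.125, the differences of 0.47, 0.32, -0.49, 0.37 and 0.34 had an adjusted p of 0.15. The depth limits *Dbp* most, with 44 to 157 reads per sample.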

Other observations

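Among the vehicle samples, replicate 3 was the highest of the 4 in *Arntl*, *Per2*, *Per3* and *Nr1d2* and the lowest in *Per1*, *Cry1* and *Dbp*. *Arntl* was at 29.1 CPM there, beside 24.1 to 26.3 CPM in the other vehicle samples, and *Cry1* was at 25.0 CPM beside 27.7 to 30.3 CPM. *Arntl* in this sample was thus nearest to the IL-1β samples, whereas *Cry1* was farthest from them. This is a description of 4 samples, made after their values were seen, and no test was run.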
